A study of Mus musculus with 9 samples.

Results

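The 7 principal globin genes of the mouse and 2 further erythroid genes were followed across RNA-seq libraries of the embryonic cardiac outflow tract. The 9 genes were picked by symbol from the 48397 symbols of the count tables, and all 9 passed the filter on low counts: the embryonic beta-type globins Hbb-y and Hbb-bh1, the embryonic alpha-type globin Hba-x, the adult beta globins Hbb-bs and Hbb-bt, the adult alpha globins Hba-a1 and Hba-a2, and the erythroid genes Alas2 and Slc4a1. They had been chosen because earlier results of these data showed their levels to differ between libraries, so the differences between litters, and between genotypes within a litter, are given below as descriptions.

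There were 5 libraries, HO 1 to HO 5, of samples homozygous for deletion of the anterior second heart field enhancer of the cardiac transcription factor gene Nkx2-5 (Nkx2-5delta-enh/delta-enh), and 4 libraries, WT 1 to WT 4, of wild-type samples (Nkx2-5+/+). All were outflow tracts, the arterial pole of the heart, of C57BL/6J embryos at E12.5. Whether each sample is 1 embryo is not stated in the labels, so a p-value here reflects the spread among the sequenced samples alone, part of which may be technical. Of the numbers carried by the count tables, which were read as litters by assumption, one was shared by HO 3, HO 4, WT 3 and WT 4 (called here the second litter), and one by HO 1, HO 2, WT 1 and WT 2 (the first litter). HO 5 carried a number that occurs once and was kept apart from both.

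Mouse embryos make red cells in waves. Primitive erythroid cells come from the yolk sac, circulate while still nucleated and carry mainly embryonic globins. Definitive erythroid cells are made in the fetal liver and carry adult globins, so the ratio of embryonic to adult globin RNA changes as definitive cells enter the blood, and primitive cells themselves also shift between globins as they mature. In each cluster the embryonic genes lie nearest to the distal enhancers that drive the cluster, and the adult genes lie farther from them.

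The beta cluster lies on chromosome 7 of GRCm38, on the minus strand, with Hbb-y at chr7:103851749-103853216, Hbb-bh1 at chr7:103841637-103843164, Hbb-bs at chr7:103826534-103828096 and Hbb-bt at chr7:103812524-103813996. The alpha cluster lies on chromosome 11, on the plus strand, with Hba-x at chr11:32276400-32278116, Hba-a1 at chr11:32283511-32284465 and Hba-a2 at chr11:32296489-32297298. Alas2, at chrX:150547375-150570638 on the plus strand, encodes the erythroid form of the enzyme that starts heme synthesis. Slc4a1, at chr11:102348824-102366203 on the minus strand, encodes band 3, the anion exchanger of the red cell membrane. All 9 are annotated as protein coding.

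Promoters of 3 beta globins and 2 alpha globins are shown because the ratios below set the genes they serve against each other. Each is 300 bases around the start of the gene in RefSeq (GRCm38.p6), most of them before the start, and is written 5′ to 3′ on the strand of the gene. Capitals mark 3 motifs searched on both strands: GATAA (bound by GATA factors), CACCC (bound by Krüppel-like factors) and CCAAT (bound by CCAAT-box factors). The windows are chr7:103853158-103853457, chr7:103827879-103828178 and chr7:103813874-103814173 on the minus strand, and chr11:32276350-32276649 and chr11:32283422-32283721 on the plus strand.
Hbb-y: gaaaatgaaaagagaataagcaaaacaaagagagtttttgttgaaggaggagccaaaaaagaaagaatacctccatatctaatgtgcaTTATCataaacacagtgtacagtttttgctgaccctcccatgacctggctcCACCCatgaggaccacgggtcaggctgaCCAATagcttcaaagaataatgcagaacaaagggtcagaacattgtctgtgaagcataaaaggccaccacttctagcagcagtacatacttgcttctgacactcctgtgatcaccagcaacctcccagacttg
Hbb-bs: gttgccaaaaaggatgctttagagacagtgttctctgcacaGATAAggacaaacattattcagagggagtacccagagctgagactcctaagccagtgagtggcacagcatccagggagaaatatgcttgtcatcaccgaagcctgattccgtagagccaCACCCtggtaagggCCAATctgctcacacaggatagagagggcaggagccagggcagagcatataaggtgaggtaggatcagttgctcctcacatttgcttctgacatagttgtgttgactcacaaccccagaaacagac
Hbb-bt: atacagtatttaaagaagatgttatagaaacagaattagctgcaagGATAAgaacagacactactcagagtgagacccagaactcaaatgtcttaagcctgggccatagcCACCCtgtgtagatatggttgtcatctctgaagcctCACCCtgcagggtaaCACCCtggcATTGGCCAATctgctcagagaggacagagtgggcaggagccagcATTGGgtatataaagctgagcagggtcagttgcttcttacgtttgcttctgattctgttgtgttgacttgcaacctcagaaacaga
Hba-x: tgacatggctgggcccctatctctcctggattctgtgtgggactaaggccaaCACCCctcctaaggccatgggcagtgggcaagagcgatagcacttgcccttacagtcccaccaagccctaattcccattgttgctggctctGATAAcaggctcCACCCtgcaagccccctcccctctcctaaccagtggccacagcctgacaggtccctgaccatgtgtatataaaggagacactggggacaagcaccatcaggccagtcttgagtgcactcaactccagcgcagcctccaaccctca
Hba-a1: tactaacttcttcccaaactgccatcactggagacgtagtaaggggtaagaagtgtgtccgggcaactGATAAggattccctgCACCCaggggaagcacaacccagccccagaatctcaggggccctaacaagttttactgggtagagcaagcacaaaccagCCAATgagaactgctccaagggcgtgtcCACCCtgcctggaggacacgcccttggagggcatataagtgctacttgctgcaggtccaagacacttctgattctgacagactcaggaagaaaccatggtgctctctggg

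The promoter table held 7 of the 9 genes; Hbb-bh1 and Slc4a1 are named only. A GATAA was found in 7 of the 7 windows and a CACCC in 7 of 7, against 25.8% and 56.7% of all 27025 promoter windows of the same length. A CCAAT was found in 5 of 7, against 37.9% of all windows; Hba-x and Alas2 had none in these windows. In the embryonic Hbb-y window the first bases of the 3 motifs lay at -162 for GATAA, read on the opposite strand, at -111 for CACCC and at -83 for CCAAT. In the adult Hbb-bs window they lay at -209, -90 and -76. These letters were chosen with the sequences in view, and a match is a description of the letters, not a site.

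The adult genes come in near-identical pairs. The coding sequences of Hbb-bt and Hbb-bs were 99.77% identical, with 1 mismatch, and those of Hba-a1 and Hba-a2 were also 99.77% identical, with 1 mismatch. The embryonic genes were far from their neighbours, at 76.35% between Hbb-y and Hbb-bh1, 74.32% between Hbb-bs and Hbb-y and 64.14% between Hba-a1 and Hba-x. Of the 50-base windows along each transcript, 34.2% for Hbb-bs, 41.74% for Hbb-bt, 32.46% for Hba-a1 and 13.07% for Hba-a2 occurred in no other gene, and 100% for Hbb-y, Hbb-bh1, Hba-x and Slc4a1. The count tables set reads with several alignments apart, so adult globin levels are undercounted, the split between the 2 copies of a pair is uncertain, and embryonic to adult ratios are set too high. Alas2, at 86.17%, overlaps Apex2 and Mir3620, and can hold reads of either because no strand setting is given.

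Between 27707435 and 49094225 reads per library were assigned to genes, and between 53868 and 415380 of them fell on the 9 genes. Nkx2-5 was read as a check of the labels. It averaged 17.5 ± 4.64 CPM (SD, n = 5) in HO and 36.3 ± 11.9 CPM (SD, n = 4) in WT, with WT 1 at 18.8 CPM inside the HO range. CPM is a count scaled to the size of its library. Nkx2-5 was not called between genotypes (edgeR adjusted p = 0.896, DESeq2 adjusted p = 0.058). Its log2 fold change was -1.53 (SE 0.39) in the second litter, without overlap, and -0.57 (SE 0.38) in the first, where genotypes overlapped. Markers of outflow tract myocardium were present in every library, 8 of 8. HO 2 stood apart from the others: its 8 neuron and Schwann cell markers summed to 2790 CPM, against at most 125.1 CPM in any other library. Hepatocyte markers, which would mark liver tissue, summed to at most 9.82 CPM in any library, and 5 of the 6 (Alb, Afp, Apoa1, Serpina1a and Ahsg) were at 0 in at least 1 library. They summed to 2.90 to 9.82 CPM in the first litter, 0.779 to 2.10 CPM in the second and 1.57 CPM in HO 5. Of all genes tested, 19.5% likewise did not overlap between litters, and any part of these low sums in the globin ratios was not tested.

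Globin RNA was present in all 9 outflow tracts, and the 7 globins together took 0.188% to 0.543% of gene reads in HO and 0.180% to 1.00% in WT. In bulk tissue, fewer red cells and less globin RNA per red cell cannot be told apart. Per kilobase of exon, Hbb-y was the most abundant of the 9 genes in every library. Per kilobase of the transcript found in no other gene, Hbb-bs was above it in WT 1 and WT 2, at 1.35 and 1.02 times its level, so the first place of Hbb-y in those libraries depends on the scaling. Its mean over 9 libraries was 4046 ± 2005 CPM per kilobase (SD), against 685 ± 365 for Hba-x, 544 ± 807 for Hbb-bs, 497 ± 460 for Hba-a1 and 415 ± 525 for Hbb-bt. Hba-a2, at 164 ± 174, and Hbb-bh1, at 134 ± 125.7 CPM per kilobase, came next, followed by Alas2 at 25.4 ± 23.1 and Slc4a1 at 6.47 ± 3.40. The means of Hba-x, Hbb-bs, Hba-a1 and Hbb-bt differ by less than their SDs, as do those of Hba-a2 and Hbb-bh1, and the mean of Alas2 lies within 1 SD of the mean of either. This order also depends on the scaling. Per kilobase found in no other gene, Hba-a1 was at 0.876 times Hbb-y in WT 1 against 0.151 for Hba-x, but at 0.224 against 0.273 in HO 3. On that scale Hba-a2 was above Hbb-bh1 in every library.

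Hbb-y, which encodes the major embryonic beta-type chain of primitive red cells, was measured at 2747, 951, 3163, 2251 and 3687 CPM in HO 1 to HO 5, against 2763, 4869.5, 1180.1 and 1439 CPM in WT 1 to WT 4. The 2 genotypes overlapped over nearly the whole range, with HO 2 lowest and WT 2 highest. In the second litter both HO libraries were above both WT libraries, and in the first litter both HO libraries were below both WT libraries, HO 1 only just below WT 1.

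Hbb-bh1, the other embryonic beta-type gene and one used mainly early in the primitive wave, was found at 24.1, 5.83, 230.4, 98.1 and 179.0 CPM in HO 1 to HO 5, against 12.8, 41.3, 69.95 and 75.3 CPM in WT 1 to WT 4. It was the one globin gene higher in all 4 second-litter libraries, at 69.95 to 230.4 CPM, than in all 4 first-litter libraries, at 5.83 to 41.3 CPM. Here too HO was above WT in the second litter, while in the first litter the genotypes overlapped.

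Hba-x, the embryonic alpha-type gene, stood at 517, 158, 1113, 588 and 1188 CPM in HO 1 to HO 5, against 537, 858, 373 and 455 CPM in WT 1 to WT 4. The order within litters was that of Hbb-y, with HO above WT in the second litter and below it in the first. Its levels in the 2 litters overlapped, at 373 to 1113 CPM in the second and 158 to 858 CPM in the first.

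Hbb-bs, an adult beta globin, had the widest range of the 9 genes, as a ratio of its highest to its lowest library. It was at 321, 271, 46.4, 52.0 and 68.5 CPM in HO 1 to HO 5, against 1267, 1688, 16.8 and 25.8 CPM in WT 1 to WT 4. The first-litter WT libraries were thus highest and the second-litter WT libraries lowest, with all 5 HO libraries between them.

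Hbb-bt, its near-identical neighbour, showed the same order. It was at 230.1, 186, 101, 76.4 and 129 CPM in HO 1 to HO 5, against 739, 1088.5, 33.8 and 38.6 CPM in WT 1 to WT 4. The litters did not overlap for either gene: Hbb-bs lay at 16.8 to 52.0 CPM in the second litter and 271 to 1688 CPM in the first, and Hbb-bt at 33.8 to 101 CPM in the second and 186 to 1088.5 CPM in the first.

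Hba-a1, an adult alpha globin, was at 380.1, 204, 256, 193 and 309.5 CPM in HO 1 to HO 5, against 874, 1186, 98.5 and 129 CPM in WT 1 to WT 4. Hba-a2, the second adult alpha copy, was at 94.4, 61.0, 58.6, 42.5 and 68.3 CPM in HO 1 to HO 5, against 255, 355, 20.4 and 28.7 CPM in WT 1 to WT 4. For both, the 2 first-litter WT libraries were highest and the 2 second-litter WT libraries lowest, as for the adult beta globins.

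Alas2 was at 51.2, 34.0, 43.6, 31.9 and 46.3 CPM in HO 1 to HO 5, against 129, 179, 15.8 and 17.8 CPM in WT 1 to WT 4, again with HO between the 2 pairs of WT libraries. Slc4a1 was at 19.8, 8.44, 53.0, 32.9 and 35.9 CPM in HO 1 to HO 5, against 49.2, 50.1, 13.9 and 21.6 CPM in WT 1 to WT 4. For Slc4a1 the highest library was HO 3 and the lowest HO 2, and the litters overlapped.

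**Figure D1:**
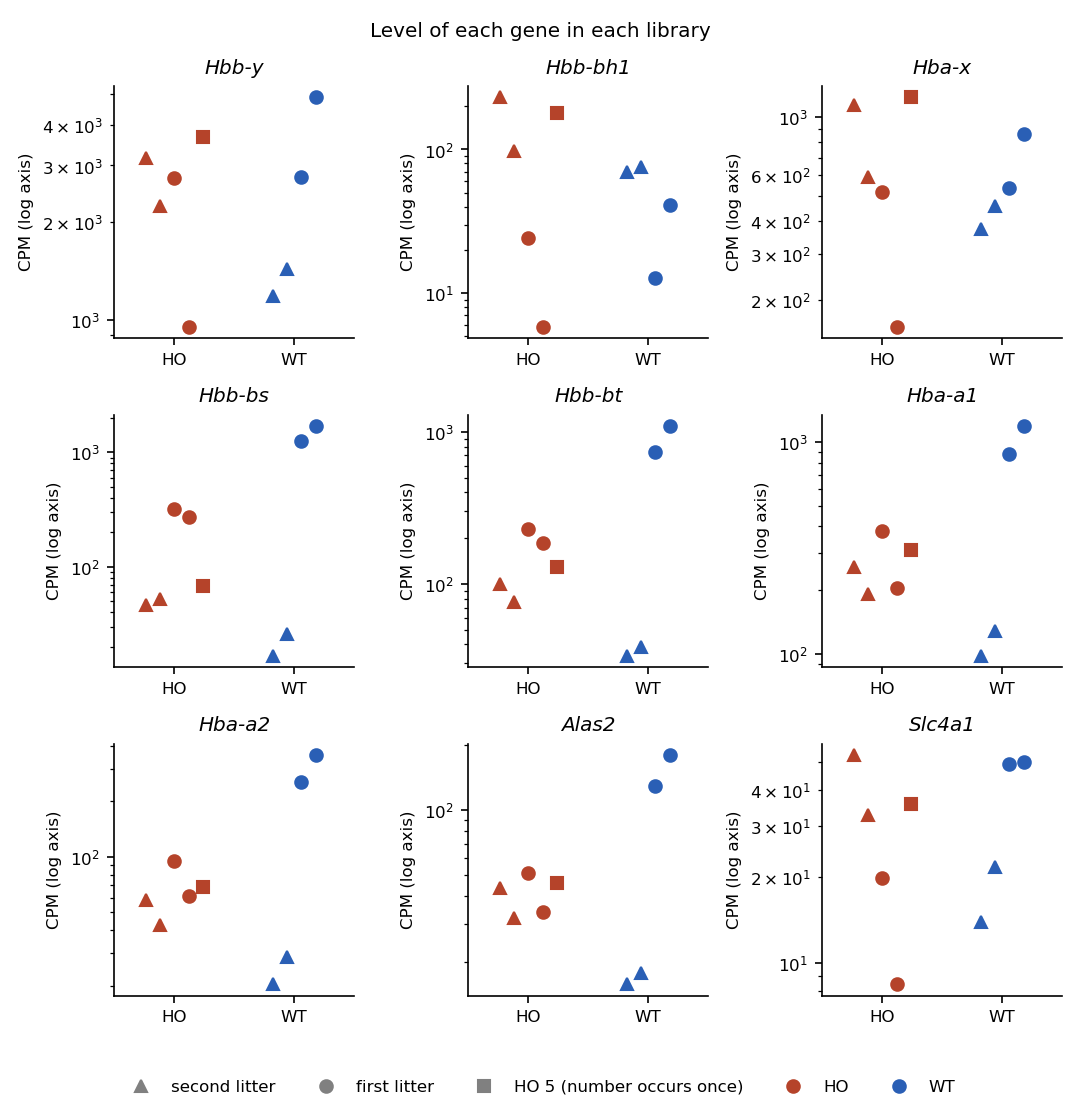
Level of each of the 9 genes in CPM (log axis) in the 5 HO libraries (red) and 4 WT libraries (blue), 1 point per library; triangles are the second litter, circles the first litter and the square HO 5. The adult globins and Alas2 were highest in the 2 first-litter WT libraries and lowest in the 2 second-litter WT libraries, with the HO libraries between, while Hbb-bh1 was above 69 CPM in every second-litter library and below 42 CPM in every first-litter library.

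The embryonic to adult beta globin ratio, Hbb-y plus Hbb-bh1 over Hbb-bs plus Hbb-bt, each per kilobase of exon, separated the litters in every library. It was 5.87 in HO 1, 2.45 in HO 2, 26.4 in HO 3, 21.1 in HO 4 and 22.4 in HO 5, against 1.62 in WT 1, 2.07 in WT 2, 28.3 in WT 3 and 27.1 in WT 4. The second litter thus lay at 21.1 to 28.3 and the first at 1.62 to 5.87, a 9.69-fold difference of geometric means (25.5 against 2.64). HO 5 fell within the range of the second litter.

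The alpha cluster gave the same split with a smaller step. Hba-x over Hba-a1 plus Hba-a2, per kilobase, was 0.903 in HO 1, 0.490 in HO 2, 2.94 in HO 3, 2.08 in HO 4 and 2.62 in HO 5, against 0.392 in WT 1, 0.459 in WT 2, 2.61 in WT 3 and 2.40 in WT 4. The second litter lay at 2.08 to 2.94 and the first at 0.392 to 0.903, a 4.69-fold difference of geometric means (2.49 against 0.531), and HO 5 again lay among the second litter. Scaled to the bases of each transcript that occur in no other gene, a scaling chosen after the data were seen, the alpha ratio was 0.502 to 0.704 in the second litter and 0.0891 to 0.213 in the first, below 1 throughout. On that scale the beta ratio was 7.43 to 10.3 in the second litter and 0.522 to 1.92 in the first. Whether Hba-x exceeded the adult alpha globins in the second litter therefore depends on the scaling, while the litters were separate under both scalings.

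Ratios within the embryonic pair and within the adult pairs also differed between litters. Hbb-bh1 over Hbb-y was 0.0450 to 0.0752 in the second litter and 0.00478 to 0.00907 in the first, an 8.26-fold difference of geometric means. HO 5 stood at 0.0501. Hbb-bt over Hbb-bs was 1.61 to 2.37 in the second litter and 0.638 to 0.782 in the first, with HO 5 at 2.06, so Hbb-bs was the larger of the adult beta pair in the first litter and Hbb-bt in the second. Hba-a1 over Hba-a2 moved less, at 3.60 to 3.97 in the second litter and 2.74 to 3.31 in the first, with HO 5 at 3.72. All alpha over all beta globin overlapped between the litters, at 0.238 to 0.285 in the second and 0.226 to 0.287 in the first, with HO 5 at 0.274. The size of these last 2 ratios depends on the scaling. Per kilobase found in no other gene, Hba-a1 over Hba-a2 was 1.37 to 1.51 in the second litter and 1.04 to 1.26 in the first. All alpha over all beta globin was then 0.512 to 0.575 in the second and 0.543 to 0.630 in the first.

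None of the 6 ratios separated the genotypes. The embryonic to adult beta ratio averaged 15.6 ± 10.7 in HO (SD, n = 5) and 14.8 ± 14.9 in WT (SD, n = 4), a difference of 0.66 in mean log2 ratio (exact two-sided permutation p = 0.667 over all labellings, 0.722 adjusted over 6 ratios). The alpha ratio averaged 1.81 ± 1.07 in HO (SD, n = 5) and 1.47 ± 1.21 in WT (SD, n = 4), a difference of 0.52 in mean log2 ratio (exact permutation p = 0.571, 0.722 adjusted). The remaining 4 differences were 0.37 for Hbb-bh1 over Hbb-y, 0.27 for Hbb-bt over Hbb-bs, 0.06 for Hba-a1 over Hba-a2 and -0.10 for alpha over beta globin, each with an adjusted exact permutation p of 0.722. The smallest p that this design allows is 0.00794. Without HO 2, the log2 differences of the beta and alpha ratios were 1.21 and 0.92, both with an adjusted exact permutation p of 0.457.

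For the embryonic to adult ratios and for Hbb-bh1 over Hbb-y, the genotypes within a litter differed by less than the litters did. In the second litter the embryonic to adult beta ratio was 26.4 and 21.1 in HO and 28.3 and 27.1 in WT, a log2 difference of -0.23. In the first litter it was 5.87 and 2.45 in HO and 1.62 and 2.07 in WT, a log2 difference of 1.05, with both HO libraries above both WT libraries. The alpha ratio differed by -0.02 in the second litter and by 0.65 in the first on the log2 scale, and Hbb-bh1 over Hbb-y by 0.02 and 0.23. With 2 libraries against 2, no permutation of a ratio within a single litter could reach 0.05, and none was made for a litter alone. Permutations of genotype within both litters together were run as alternatives, with HO 5 left out or placed in the second litter. No genotype difference in a ratio passed an adjusted exact permutation p of 0.05 in either.

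**Figure D2:**
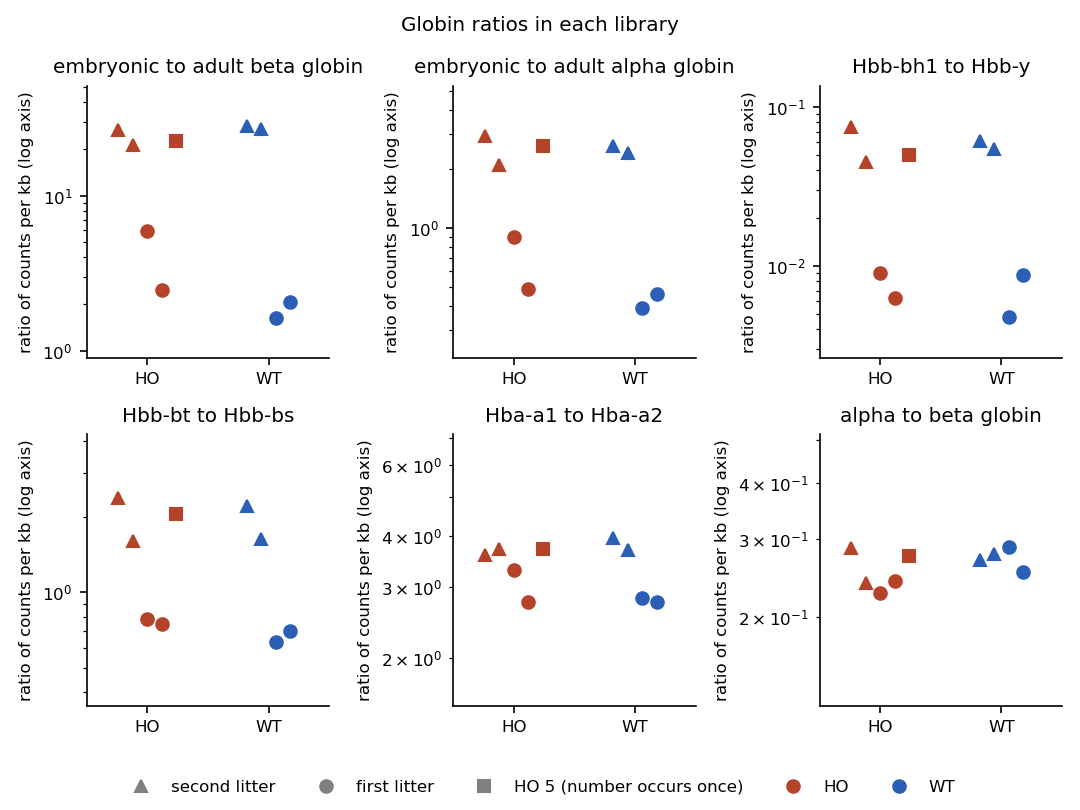
The 6 globin ratios, each of counts per kilobase of exon (log axes), in the HO libraries (red) and WT libraries (blue); triangles are the second litter, circles the first litter and the square HO 5. In the first 5 panels every second-litter library lies above every first-litter library whatever its genotype, as for the beta ratio at 21.1 to 28.3 against 1.62 to 5.87; in the alpha to beta panel the litters overlap.

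Averaged over genotypes, the adult genes of both clusters were lower in the second litter. The embryonic genes were not, or by less, as the plot of litter difference against position shows. In a fit of all genes with genotype and litter, the log2 difference, second litter minus first, was -0.50 (SE 0.52) for Hbb-y, 2.43 (SE 0.70) for Hbb-bh1, -4.34 (SE 0.82) for Hbb-bs and -2.94 (SE 0.77) for Hbb-bt. Hba-x stood at 0.29 (SE 0.58), Hba-a1 at -1.78 (SE 0.63) and Hba-a2 at -2.12 (SE 0.67). The 4 adult genes thus had the 4 lowest values of the 7 globins, and Hbb-bh1 had the highest. The values of Hbb-y and Hba-x average opposite directions. Hbb-y averaged 2707 CPM in the second litter and 1849 CPM in the first in HO, against 1310 and 3816 CPM in WT. Hba-x averaged 851 and 337 CPM in HO, against 414 and 698 CPM in WT. Hba-a1 averaged 224 CPM in the second litter and 292 CPM in the first in HO, where litters overlapped, against 114 and 1030 CPM in WT. Alas2 had a difference of -1.68 (SE 0.66) and Slc4a1 of 0.05 (SE 0.71), each an average over genotypes that differed. Alas2 averaged 37.7 CPM in the second litter and 42.6 CPM in the first in HO, and 16.8 CPM in the second and 154 CPM in the first in WT (n = 2 each). Slc4a1 averaged 42.9 CPM in the second litter and 14.1 CPM in the first in HO, and 17.8 CPM in the second and 49.7 CPM in the first in WT, opposite directions in the 2 genotypes. Without HO 2 the differences were -4.98 for Hbb-bs, -3.57 for Hbb-bt and 1.94 for Hbb-bh1.

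Litter differences were common among all genes. Groups did not overlap between litters for 4 of the 9 genes (Hbb-bs, Hbb-bt and Hba-a2 lower, Hbb-bh1 higher in the second litter) and for 19.5% of the 16522 genes tested. At an edgeR adjusted p of 0.05, 1 of the 9 genes was called (Hbb-bs) and 9.65% of all genes. That count over all genes ran between 346 and 1717, against 1594 with all libraries, when single libraries were left out. It was 346 without WT 3, 391 without WT 4, 420 without HO 3, 784 without HO 4 and 982 without WT 1. Hbb-bs lost its call without HO 3, WT 1, WT 3 or WT 4, with adjusted edgeR p-values of 0.0574, 0.0560, 0.0640 and 0.0750 and log2 differences of -3.65 to -4.52. Without HO 2, Hbb-bt, Hba-a1 and Hba-a2 were called as well, without HO 1 Hbb-bt was, and without WT 2 Hbb-bh1 was. The median difference of the 9 genes was -1.68, against -0.03 over all genes.

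**Figure D3:**
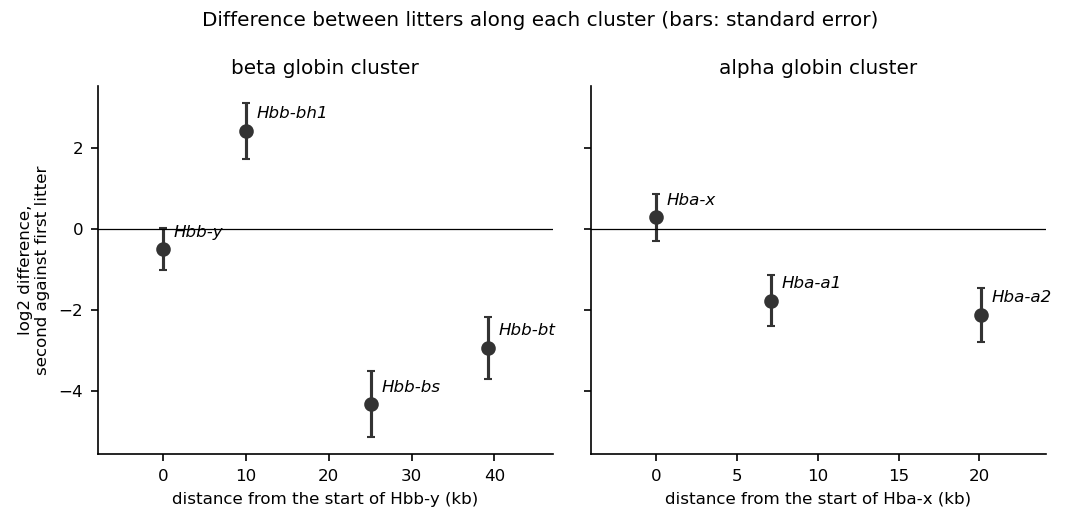
Log2 difference in level between litters, second minus first, for each globin against the distance of its start from that of the embryonic gene at the head of its cluster (kb); bars are standard errors from the edgeR fit. Hbb-y and Hba-x lie near 0, Hbb-bh1 at 2.43 above it, and the 4 adult genes between -1.78 and -4.34. The values average HO and WT, whose means ran in opposite directions between litters for Hbb-y and Hba-x.

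Between HO and WT over all 9 libraries, no gene of the group passed the test. The log2 fold change, HO against WT, was -2.30 (SE 1.29) for Hbb-bs, -1.72 (SE 0.95) for Hbb-bt, -1.34 (SE 0.76) for Hba-a2, -1.09 (SE 0.67) for Hba-a1 and -1.04 (SE 0.66) for Alas2. It was -0.17 (SE 0.52) for Slc4a1, -0.0018 (SE 0.46) for Hbb-y, 0.36 (SE 0.50) for Hba-x and 1.11 (SE 0.93) for Hbb-bh1. Adjusted edgeR p-values of the 9 genes ran between 0.896 and 1.00, 0 of 9 was called, and the genotypes overlapped for all 9. Over all genes edgeR called 0 of 16522 (0.0%; 870 at an unadjusted p under 0.05), and the genotypes did not overlap for 1.8%. DESeq2 called 38 genes (0.201%), none of the 9. With 1 pair of WT libraries far above HO and the other far below, the pooled fold change of the adult globins averages 2 opposite differences. Without WT 2 alone, that of Hbb-bs was -1.52, of Hbb-bt -0.91 and of Alas2 -0.39.

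Within litters the 9 genes ran in opposite directions. In the second litter HO was above WT for 9 of the 9 genes with no overlap of the libraries (19.4% of all genes did so), by log2 fold changes of 1.29 (SE 0.22) for Hbb-bt, 1.20 (SE 0.23) for Hbb-bs, 1.17 (SE 0.25) for Alas2, 0.98 (SE 0.30) for Hba-a1 and 1.05 (SE 0.48) for Hbb-y. In the first litter HO was below WT for 8 of the 9 genes with no overlap (20.0% of all genes did so), the exception being Hbb-bh1. HO 1 alone, without HO 2, was also below both WT libraries for these 8 genes. It was only just below WT 1 for Hbb-y (2747 against 2763 CPM) and Hba-x (517 against 537 CPM). Log2 fold changes there were -2.32 (SE 0.23) for Hbb-bs, -2.13 (SE 0.22) for Hbb-bt, -1.85 (SE 0.25) for Alas2, -1.82 (SE 0.31) for Hba-a1 and -1.05 (SE 0.48) for Hbb-y. The median over the 9 genes was 1.17 in the second litter and -1.82 in the first, against 0.0024 and -7.7e-05 over all genes. At an edgeR adjusted p of 0.05, 0 of the 9 were called in the second litter (0.0% of all genes; 437 genes at an unadjusted p under 0.05) and 2 in the first (Hbb-bs and Hbb-bt, both lower, as were 0.0363% of all genes), where fits of the first litter alone gave adjusted p-values of at least 0.419.

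Embryonic and adult globins had similar fold changes in the second litter and less similar ones in the first, a difference that was not tested. Log2 fold changes, HO against WT, of the 3 embryonic genes were 1.05 (Hbb-y), 1.18 (Hbb-bh1) and 1.04 (Hba-x) in the second litter and -1.05, -0.83 and -1.05 in the first. Those of the 4 adult genes were 0.98 to 1.29 in the second litter and -2.32 to -1.82 in the first. Slc4a1 was at 1.27 (SE 0.40) in the second litter and -1.80 (SE 0.41) in the first, nearer to the adult globins.

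**Figure D4:**
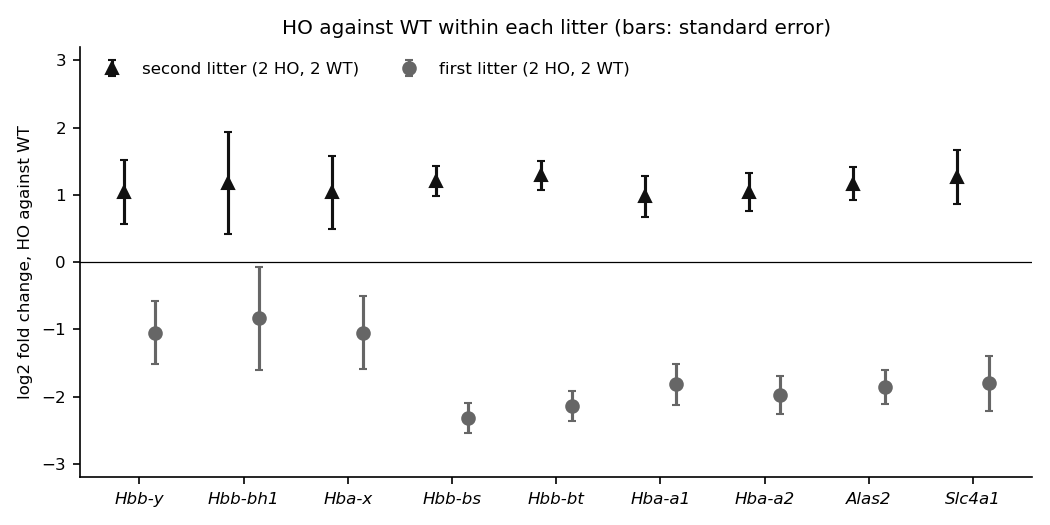
Log2 fold change, HO against WT, of each gene in the second litter (triangles) and the first litter (circles), 2 HO and 2 WT libraries each; bars are standard errors from a fit of all 9 libraries. Every gene lies above 0 in the second litter, at 0.98 to 1.29, and below 0 in the first, at -2.32 to -0.83.

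Opposite directions in the 2 litters, without overlap in either, were seen in 8 of the 9 genes and in 4.13% of all genes tested. With a log2 fold change of at least 1 each way, the counts were 7 of 9 (all but Hba-a1 and Hbb-bh1) and 0.49% of all genes, or 81. Hbb-y and Hba-x passed this cut narrowly in the first litter, both at -1.05, where HO 1 lay close to WT 1 and HO 2 far below. The count without HO 2 was not made. Among those 81 were also Epb42 and Gata1, named here after their values were seen, which encode a protein of the red cell membrane skeleton and a transcription factor of the erythroid lineage. Epb42 was at 1.97 (SE 0.39) in the second litter and -1.87 (SE 0.40) in the first. In edgeR's test of the difference of genotype effects between litters, 2 of the 9 genes were called, Hbb-bs at 3.52 (SE 0.32) and Hbb-bt at 3.42 (SE 0.31), both with an adjusted p of 0.0341. They were the only calls among 16522 genes (0.0121%). Since the genes were chosen with this pattern known, the test does not support it independently. The difference ran in the same direction for all 9 genes, between 2.01 for Hbb-bh1 and 3.52 for Hbb-bs.

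The number of genes called in that test depended on single libraries. It was 243 without HO 1, 9 without WT 1, 1 without WT 4, 2 without HO 5 and 0 without any one of HO 2, HO 3, HO 4, WT 2 and WT 3. Hbb-bs and Hbb-bt kept values of 3.23 to 3.85 and 3.12 to 3.67 in these 9 fits, were called in 3 of them (without HO 1, HO 5 or WT 1), and had adjusted edgeR p-values up to 0.262 and 0.457. Without HO 2 they were at 3.39 and 3.27, both with an adjusted p of 0.129.

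**Figure D5:**
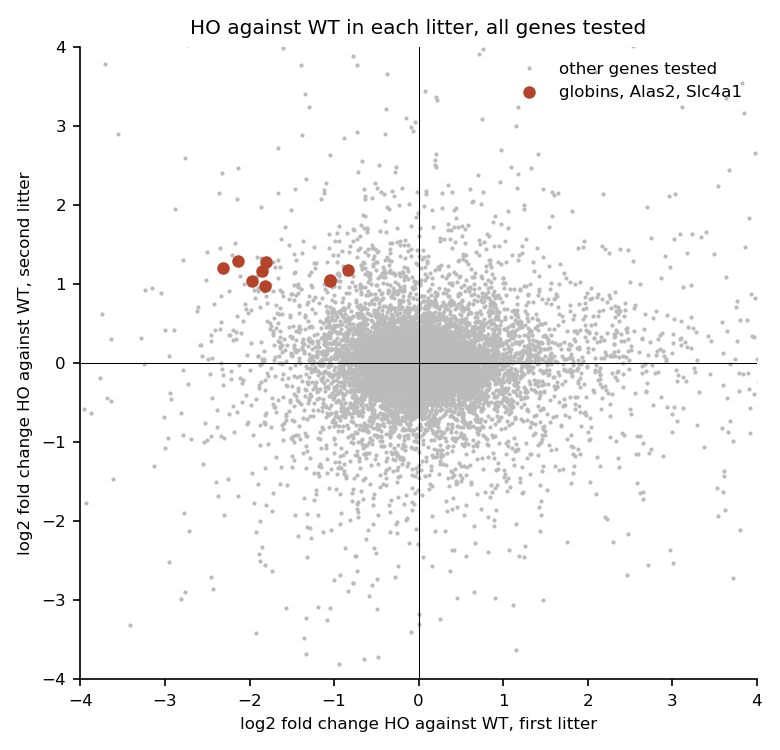
Log2 fold change, HO against WT, in the second litter (vertical axis) against that in the first litter (horizontal axis) for the genes tested, with the 9 genes in red; 186 genes lie outside the axes. The 9 genes lie together at upper left, at 0.98 to 1.29 on the vertical axis and -2.32 to -0.83 on the horizontal axis, where other genes are sparse.

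Markers of other blood cells and of smooth muscle were read beside the globins. The 8 macrophage and leukocyte markers, 8 of 8 above 1 CPM in every library, summed to 84.5 to 108 CPM in HO and 58.4 to 91.4 CPM in WT in the second litter. In the first litter they summed to 192 to 216 CPM in HO and 297 to 306 CPM in WT, and in HO 5 to 92.0 CPM. The 7 megakaryocyte and platelet markers summed to 24.6 to 28.9 CPM in HO and 31.1 to 32.7 CPM in WT in the second litter, and to 21.5 to 26.9 CPM in HO and 52.3 to 78.4 CPM in WT in the first; HO 5 was at 53.1 CPM. Gp6 was at 0 in 3 libraries (HO 1, HO 3 and WT 2). The 4 smooth muscle markers summed to 2257 to 2502 CPM in HO and 2446 to 2735 CPM in WT in the second litter, and to 1457 to 1780 CPM in HO and 2553 to 2712 CPM in WT in the first. The 6 endothelial markers summed to 734 to 794 CPM in HO and 638 to 649 CPM in WT in the second litter, and to 698 to 706 CPM in HO and 645 to 803 CPM in WT in the first. The 8 myocardial markers summed to 9729 to 13238 CPM in HO and 14309 to 14518 CPM in WT in the second litter, and to 9378 to 12223 CPM in HO and 6911 to 16288 CPM in WT in the first. The 8 neuron and Schwann cell markers summed to 97.4 to 104 CPM in HO and 76.4 to 81.0 CPM in WT in the second litter. In the first litter genotypes did not overlap for macrophage, platelet and smooth muscle markers. In the second they did not for endothelial, myocardial, platelet and neural markers. Of all genes tested, 37.2% did not overlap in the first litter and 38.4% in the second, so such separations were common. The part of these markers in the globin differences was not tested.

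Other genes of the erythroid program were read from 6 lists. Of their 70 genes, 67 were in the tables and 62 passed the filter. Between HO and WT over all libraries, 0 of the 62 were called, 30 lay above 0 and 32 below it, with a median log2 fold change of -0.0033 against 0.0029 over all genes. In the second litter 46 of the 62 lay above 0, with a median of 0.12, and in the first litter 39 lay below 0, with a median of -0.12. Single lists did not all follow these pooled counts: of the 9 genes for receptors and iron uptake, 6 lay above 0 in the second litter (median 0.12) and 5 above 0 in the first (median 0.05).

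Red cell enzymes and membrane proteins had the largest medians among the lists of 10 or more genes in both litters. Among the 10 tested red cell enzyme and maturation genes, 10 lay above 0 in the second litter (median 0.22) and 7 below 0 in the first (median -0.48). Among the 16 membrane and skeleton genes, 13 lay above 0 in the second litter (median 0.41) and 10 below 0 in the first (median -0.21). The most abundant members of these lists varied less than the globins: Prdx2, which encodes an antioxidant enzyme of red cells and many others, was at 466 to 616 CPM in all 9 libraries, and Epb41, which encodes protein 4.1 of the membrane skeleton, at 90.5 to 131 CPM.

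Of the 11 heme synthesis genes, 5 lay below 0 in the second litter and 6 in the first. Fech, which encodes the enzyme that puts iron into heme, was at 132, 146, 123, 108.5 and 118 CPM in HO 1 to HO 5, against 229, 211, 98.5 and 96.4 CPM in WT 1 to WT 4. As for Alas2, HO lay between the 2 pairs of WT libraries, with smaller steps, though the order within HO and within WT differed. Among the other globins, Hbb-bh0, an embryonic-type gene of the beta cluster, was low throughout, at 0.356 to 1.49 CPM in HO and 0.169 to 3.25 CPM in WT, and was highest in the 2 first-litter WT libraries, as the adult globins were. The genes for iron storage proteins, Fth1 and Ftl1, were at 818 to 1129 CPM and 296 to 429 CPM.

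Between the litters, 7 of the 62 were called by edgeR at an adjusted p of 0.05, a share near the 9.65% of all genes, so the count says nothing particular of these lists. Klf1, which encodes a transcription factor that activates the adult beta globin gene, was higher in the second litter by 1.99 (SE 0.30, adjusted p = 0.0094), and also higher were Zfpm1 at 0.52 (SE 0.11, adjusted p = 0.0221), Bcl11a at 0.56 (SE 0.15, adjusted p = 0.0496) and Cpox at 0.38 (SE 0.10, adjusted p = 0.0465). Zfpm1 encodes a partner of GATA factors, Bcl11a a repressor of embryonic globin genes and Cpox a heme synthesis enzyme. Lower in the second litter were Hbb-bh0 at -2.85 (SE 0.57, adjusted p = 0.0198), Fech at -0.72 (SE 0.17, adjusted p = 0.0355) and the iron exporter gene Slc40a1 at -0.70 (SE 0.16, adjusted p = 0.0286). Klf1 RNA was thus higher in the litter in which adult beta globin RNA was lower.

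Genes whose levels ran most like the globins were ranked by Pearson correlation of log2 CPM over the 9 libraries, among 13857 genes outside these lists. Nearest to the summed adult beta globins were Fcgr3 (r = 0.987), Ifi27l2a (0.986), Igfbp6 (0.986), S100a16 (0.984) and Cd68 (0.981). Fcgr3 encodes an immunoglobulin receptor of leukocytes and Cd68 a protein of macrophages. Nearest to the summed embryonic beta globins were Hsd3b6 (0.969), Txndc12 (0.968), Ostc (0.927), Commd2 (0.920) and Gm12174 (0.906). The same measure set Hba-a2 at 0.974, Hba-a1 at 0.948 and Alas2 at 0.945 with the adult beta globins, and Hba-x at 0.895 and Slc4a1 at 0.882 with the embryonic ones. All points share the 2 litters and their depth, so these values describe the 9 libraries and no more.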

How the data were processed

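Total RNA of dissected outflow tracts was sequenced, and the authors deposited whole-number read counts per gene symbol, 1 table per library. The mm10 build, STAR 2.5.0c, HTSeq 0.6.0, Picard and DESeq2 are named, per the submitters' processing notes. Annotation and strand setting: not given in the sources used here. Rows that name no gene were left out; they took 20.6% to 23.5% of a library's reads, reads with several alignments alone 10.6% to 12.4%. All 9 libraries differed from each other beyond sampling noise (chi-square per degree of freedom at least 15.9).

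The 9 genes, the erythroid lists and the marker lists were chosen with earlier results of these data known. Beside the 9 genes, the text names list members past the edgeR threshold between genotypes or otherwise the 2 most abundant per list (1 of these is not reported here), and the 5 genes most like each beta globin sum; Slc40a1, Cpox, Klf1, Bcl11a, Epb42 and Gata1 were named after their values were seen. Exon lengths and coordinates come from the GENCODE annotation of GRCm38, which held 46394 of 48397 symbols and 9 of the 9 genes. Promoters come from RefSeq.

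The deposited counts went into edgeR 4.0.16 under R 4.3.3 (quasi-likelihood test, TMM factors, minimum count of 10, two-sided, Benjamini-Hochberg adjusted p of 0.05 over 16522 genes) and, as an alternative, DESeq2 1.42.0. Genotype was the only term in the genotype fit. A fit with genotype and litter as cells, HO 5 apart, gave values within litters and their difference, and a fit with genotype and litter as terms gave litter differences; in both, HO 5, alone at its level, adds neither to these differences nor to the residual spread, only to filtering and scaling. CPM is scaled by TMM factors; a prior count of 2 was added for log2 CPM. Ratios were compared by exact permutation over samples. The procedures were tested on simulated data.

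HO and WT share the replicate numbers 1 to 4. The correlation of deviations from the group mean between the 2 libraries of a number was 0.242, 0.137, 0.227 and 0.176. Numbers 3 and 4 are of the second litter, 1 and 2 of the first. Across genotypes the mean correlation was 0.193 within a litter and -0.196 between litters. Libraries sharing a replicate number were thus about as alike as libraries sharing a litter. These values do not show pairing by replicate number apart from litter, and the block for it was run only as an alternative. Alternatives covered normalization, filters, tests, the replicate block, litter, length scaling and leaving out each library.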

Additional observations from a re-analysis of the deposited data

Results flagged for a closer look

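For 2 genes the genotype effect passed a test of its difference between the litters. The log2 fold change, HO against WT, was larger in the second litter than in the first by 3.52 (SE 0.32) for Hbb-bs and by 3.42 (SE 0.31) for Hbb-bt, both with an edgeR adjusted p of 0.0341. In the second litter both HO libraries were above both WT libraries for each gene, and in the first litter both were below. Both genes were chosen with this pattern known, from values that the test uses, so its p does not support it. Each gene was called in 3 of 9 fits with single libraries left out, with adjusted edgeR p-values up to 0.262 (Hbb-bs) and 0.457 (Hbb-bt). With 34.2% of Hbb-bs and 41.74% of Hbb-bt windows found in no other gene, the split of reads between them is uncertain. Among the 30 groups checked for a library standing far from the rest of its group, 0 were found. Each group pooled the litters of 1 genotype, so a split between litters widens its range and can hide such a library. The check covered gene levels and ratios, not the neural markers in which HO 2 stood apart.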

How the results depend on the processing

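No called value changed sign under the alternatives run. Uncalled ones did: each of the 9 log2 fold changes, HO against WT, took the opposite sign under at least 1 alternative, as did 4 of the 6 genotype differences in ratios. In the second litter alone 7 of 9 did (Hbb-bs at 1.20, Hbb-bt at 1.29), and in the first litter alone Hbb-bh1 was at -0.83. The count of genes called between HO and WT, 0 with all libraries, was 38 by DESeq2, 6 in the second litter alone, 11 in the first litter within a fit of all libraries (an alternative added after seeing the data) and 0 to 1 when single libraries were left out (1 without WT 3). With a block for replicate number (replicate block) it was 0. The log2 fold change of Hbb-bs was then -0.57 and that of Hbb-bt -0.43, and the block changed no call. The count for the difference of genotype effects between litters, 2 with all libraries, was 10 with HO 5 read as second litter, 735 without a filter on low counts and 0 to 243 with single libraries left out. Of the 9 genes, 4 were then called with HO 5 in the second litter (Alas2 and Hba-a2 added), 9 without the filter and 8 without HO 1 (all but Hbb-bh1). The count between litters, 1594, ran from 346 to 1717 with single libraries left out. The causes of these shifts were not tested. Litter differences in the Hba-a1 to Hba-a2 ratio were 0.34 to 0.43 on the log2 scale with single libraries left out, and their adjusted exact permutation p then reached 0.0686 in 4 of 8 such tests. The lowest count of any of the 9 genes in a library was 167 reads (Hbb-bh1 in HO 2), so counting error is small beside the differences between libraries.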
